A study of Mus musculus with 4 samples.

Results

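The genes of cholesterol and fatty acid synthesis and of sterol transport were examined in Treg cells of the mouse, the Foxp3-positive CD4 lymphocytes that restrain other immune cells. The list held 37 genes of the mevalonate, sterol and fatty acid routes, their regulators and their exporters, and a gene's value is that of its brightest probe set over the 4 arrays. Of these, 35 had a probe set that the platform annotation gives to that gene alone, and all 35 passed the filter on dim signals, out of 12115 genes in all. Acat2 and Nr1h2 were not analysed here.

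The arrays came from spleen Treg cells of C57BL/6 mice: 2 wild-type and 2 labelled Foxo1/3-deficient. The titles place them in 2 numbered pairs, with 1 array of each genotype in each pair. For the deficient samples the genotype entry mentions Foxo1 alone, whereas their titles mention both genes. Neither the deleting allele, the animals' age nor the number of animals behind an array was stated in the sources used here, so the p-values measure only the spread between these arrays. Signals are MAS5 intensities, given below for pair 1 and then pair 2, wild-type arrays first and labelled-deficient arrays after the word against.

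Cells build cholesterol from acetyl-CoA through mevalonate, isoprene units, squalene and a chain of sterol ring enzymes, and they build fatty acids from the same precursor through malonyl-CoA. The SREBP transcription factors drive both routes: SCAP escorts them out of the endoplasmic reticulum when sterol is scarce, and the INSIG proteins hold them there when it is plentiful. Excess sterol is converted to oxysterols, which activate the LXR receptors and with them the export pumps ABCA1 and ABCG1. Activated T cells raise synthesis as they grow and divide, and Treg cells are known to need the mevalonate route for their suppressive function.

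The promoters of 5 members are printed because their genes carry the contrast in the results: a sterol exporter and an elongase with the largest positive differences, a classical SREBP target that did not pass the test (limma, below), and a pair of known LXR targets. Each is the 300-base RefSeq window of the GRCm38.p6 build, from 250 bases before to 50 bases after the start of transcription, written 5′ to 3′ on the gene's strand. Capitals mark the motifs searched for on both strands: the sterol regulatory element TCACNCCAC, the CCAAT box bound by NF-Y, the FoxO element GTAAACA, the E-box CACGTG and the LXR element, TGACC followed after any 5 bases by TNACC. The windows lie at chr4:53159846-53160145 (minus strand) for Abca1, chr3:129532136-129532435 (plus) for Elovl6 and chr13:119690101-119690400 (plus) for Hmgcs1. Those of Srebf1, the start of its 3 listed ones that holds the LXR element, and of Fasn lie at chr11:60210422-60210721 and chr11:120824498-120824797, both on the minus strand.
Abca1: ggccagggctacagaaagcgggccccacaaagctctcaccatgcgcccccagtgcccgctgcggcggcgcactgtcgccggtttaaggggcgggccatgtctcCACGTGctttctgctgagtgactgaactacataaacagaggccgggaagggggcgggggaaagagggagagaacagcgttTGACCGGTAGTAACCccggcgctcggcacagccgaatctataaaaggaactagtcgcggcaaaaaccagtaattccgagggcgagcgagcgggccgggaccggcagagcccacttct
Elovl6: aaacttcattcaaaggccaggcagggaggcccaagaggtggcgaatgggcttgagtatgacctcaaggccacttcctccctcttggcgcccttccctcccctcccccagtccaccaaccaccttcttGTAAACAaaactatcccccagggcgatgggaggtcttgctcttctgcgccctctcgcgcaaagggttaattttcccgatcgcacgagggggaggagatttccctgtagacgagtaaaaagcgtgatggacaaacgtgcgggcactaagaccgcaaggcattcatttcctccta
Hmgcs1: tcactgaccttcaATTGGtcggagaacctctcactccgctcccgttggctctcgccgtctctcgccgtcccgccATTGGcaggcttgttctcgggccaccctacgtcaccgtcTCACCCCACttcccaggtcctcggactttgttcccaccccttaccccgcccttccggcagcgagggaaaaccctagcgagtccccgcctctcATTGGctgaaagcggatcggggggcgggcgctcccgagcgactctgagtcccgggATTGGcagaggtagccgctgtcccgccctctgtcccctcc
Srebf1: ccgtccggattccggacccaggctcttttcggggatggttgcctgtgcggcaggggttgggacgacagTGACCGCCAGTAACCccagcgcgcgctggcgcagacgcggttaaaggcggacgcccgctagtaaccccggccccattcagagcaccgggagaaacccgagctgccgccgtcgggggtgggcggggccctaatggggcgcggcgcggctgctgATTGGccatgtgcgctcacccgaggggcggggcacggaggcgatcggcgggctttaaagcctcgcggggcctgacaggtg
Fasn: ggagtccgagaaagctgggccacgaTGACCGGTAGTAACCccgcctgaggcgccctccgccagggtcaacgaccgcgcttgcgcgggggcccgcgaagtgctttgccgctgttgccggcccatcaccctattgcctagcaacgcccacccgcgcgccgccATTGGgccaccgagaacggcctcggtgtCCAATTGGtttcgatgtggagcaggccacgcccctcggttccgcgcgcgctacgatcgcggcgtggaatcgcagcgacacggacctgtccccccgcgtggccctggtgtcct

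Promoter windows were found for 29 of the members. A CCAAT box stood in those of 22 members (75.9%), against 41.1% of the 27025 genes with a window. Mvk held 5 of them, and Hmgcs1 and Nsdhl 4 each. An E-box stood in 7 (24.1% against 8.09%): Hsd17b7, Sc5d, Dhcr7, Scap, Insig1, Abca1 and Elovl5. The exact sterol element was found in Hmgcs1 only, 137 bases upstream, and in 1.44% of all genes. The exact FoxO element was found in Elovl6 only among the members, 123 bases upstream, and in 4.05% of all genes. Other forms of it were not searched for. The LXR element stood 67 bases upstream in Abca1, 225 in Fasn and 182 in Srebf1, against 0.226% of all genes; its letters were written after the Abca1 window had been read, so that match was given in advance. In the windows printed, 1 match overlapped another, between CCAAT boxes of Fasn. These are matches of letters, not measured binding.

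Foxo1 itself read 2383 and 1254 against 6949 and 6697, higher on the labelled-deficient arrays, which goes against the label (log2 1.97 ± 0.30, limma adjusted p = 0.0209). Foxo3 was dimmer there, at 1876 and 2635 against 1424 and 1308. The position of these probe sets in relation to the deletion was not stated in the sources used here, and every direction below is that of the arrays as labelled. Treg markers were bright on all 4 arrays: summed over 6 genes they ran from 37521 to 38422 in wild-type and from 37918 to 38409 in labelled-deficient cells. The steady sum hides differences between single genes, and Ikzf2 was its largest term. Cd4 read 3028 and 1994 against 3081 and 1456, and Cd3e 3759 and 2214 against 3371 and 1858. Both were lower in pair 2 (limma adjusted p for the pair 0.00486 and 0.00407). Il2ra read 2449 and 3584 against 4416 and 3962. For the genotype, 0 of the 6 passed in either fit. All 23 cell division genes measured had a difference below 0 (median log2 -1.10, and -1.12 with quantile normalization), and 7 passed the test downward, where 1.37% of all genes did. With the pair as a block 21 passed downward, where 6.50% of all genes did.

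Few of the lipid genes passed, and their differences lay on both sides of 0. Abca1, the pump that loads cholesterol onto apolipoprotein A-I, was the 1 member of 35 that passed the test, and it was higher; 0 members passed downward (limma, adjusted p under 0.05; 3 were higher and 1 lower at an unadjusted p under 0.05, which 13.0% of all genes reached). Over all 12115 genes tested 2.60% passed, 1.23% upward and 1.37% downward, so the members' share was near the background. With the numbered pair as a block, Elovl6 passed as well, which made 2 members higher and 0 lower where 11.9% of all genes passed, 5.44% upward and 6.50% downward. That fit left 1 residual degree of freedom, so its p-values rest mostly on variance shared across genes. The median log2 difference of the members was 0.04, against -0.0028 for all genes, and the median size without sign was 0.24 for both. A missed threshold does not show equality: the 95% interval of the difference lay within 2-fold either way for 23 of 35 members (65.7%, against 53.2% of all genes).

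**Figure D1:**
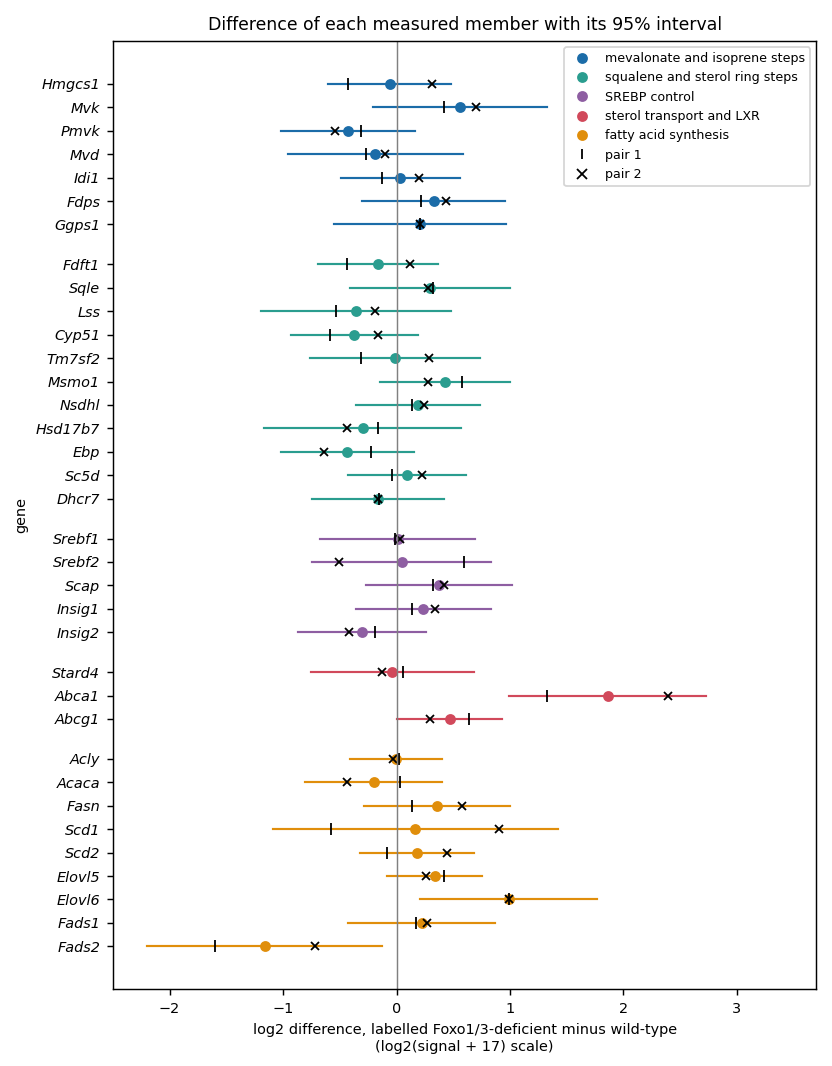
Log2 difference of each measured member between labelled Foxo1/3-deficient and wild-type arrays (dots, 2 arrays a group) with its 95% interval from limma (lines); bars and crosses give the ratio within pair 1 and pair 2. Abca1 stands at 1.86 with an interval from 0.99 to 2.73, while the sterol synthesis genes scatter on both sides of 0.

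Sterol export and transport held the called gene. Abca1 read 445 and 198 against 1141 and 1113, log2 ratios of 1.32 in pair 1 and 2.40 in pair 2. Both labelled-deficient signals lay far above both wild-type signals, and the wild-type arrays themselves differed by more than the labelled-deficient ones. The mean rose from 321 ± 175 to 1127 ± 19.8 (SD, n = 2), a log2 difference of 1.86 ± 0.37 (SE) on the log2(signal + 17) scale, or 3.63-fold (limma adjusted p = 0.0486). The call lay close to the threshold: it passed with the pair as a block (2.60e-05) and without wild-type replicate 1 (0.000939). It missed without wild-type replicate 2 (adjusted p = 0.0509), without labelled-deficient replicate 1 or 2 (0.141 and 0.116), without the filter (0.123) and without the intensity trend in the variance model (0.107). It also missed with a pseudocount of 1 (0.0534) and with the mean of its probe sets (0.0894). The rise rests on 1 probe set: another that passed the filter was dim, at 43.1 and 58.3 against 71.3 and 60.5, and when it was read in its place the difference was 0.30 (adjusted p = 0.890). A further Abca1 probe set, under the filter, read 25.5 and 21.1 against 12.1 and 8.11, lower in both pairs (-0.54 and -0.60).

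Abcg1, which exports cholesterol to mature lipoprotein particles, read 2672 and 2958 against 4180 and 3624. The groups did not overlap, but the log2 difference of 0.47 ± 0.20 missed the threshold (limma adjusted p = 0.375, and 0.0652 with the block). Its dimmer probe set read 366 and 154 against 341 and 334, where the groups overlapped. Stard4, a soluble carrier that moves sterol between membranes, read 809 and 1304 against 842 and 1189, a difference of -0.04 with an interval from -0.75 to 0.68. Another Stard4 probe set read 762 and 743 against 598 and 649, lower in both pairs (-0.34 and -0.19). A dimmer one turned sign between pairs 1 and 2 (0.22 and -0.66). Neither was tested.

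Macrophages express Abca1 strongly, and some myeloid markers were brighter on the same arrays. Of 9 listed myeloid markers 6 passed the filter, and 0 passed the limma test at an adjusted p under 0.05. At an unadjusted p under 0.05, 2 were higher and 0 lower, where 13.0% of all genes reached it. Csf1r, the receptor for macrophage colony-stimulating factor, read 4749 and 2987 against 6676 and 5165 (log2 0.64, adjusted p = 0.356; 0.00925 with the block). Adgre1, which encodes F4/80, read 691 and 508 against 1538 and 978 (log2 1.03, adjusted p = 0.155; 0.000800 with the block). Lyz2, Cd68, Cd14 and S100a8 passed in neither fit, at log2 -0.14, 0.08, 0.50 and -0.98. The summed signal of the list ran from 4773 to 7388 in wild-type and from 7433 to 10024 in labelled-deficient cells. Csf1r was the largest term of that sum on every array. None of the list's 8 measured markers was at 0, with Itgam at most 36.1 and S100a9 at most 28.2. B cell markers summed to between 10595 and 13856 in wild-type and to between 13895 and 18599 in labelled-deficient cells. Most of that sum was Ighm, at 11620 and 9839 against 11293 and 16923. Ms4a1, which encodes CD20, passed upward with the block (limma adjusted p = 0.00433). Cd79a, Cd79b and Ighm passed in neither fit, and each was lower on the labelled-deficient array in pair 1 (-0.25, -0.26 and -0.04) and higher in pair 2. The part of these cells in the Abca1 result was not tested, and in bulk RNA a change in the share of cells cannot be told from a change per cell.

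LXR receptors control both exporters, and their other known targets gave a mixed picture. Mylip, which encodes the ubiquitin ligase IDOL that marks lipoprotein receptors for breakdown, read 2887 and 3402 against 5475 and 5599. The groups stood well apart (log2 0.82 ± 0.19), and the difference passed with the block (adjusted p = 0.00107) but not without it (0.0778). Srebf1 and Fasn, whose promoters hold the LXR element shown above, stood at log2 0.01 and 0.36, and Scd1 at 0.17. Lpcat3, which inserts polyunsaturated chains into phospholipids, stood at 0.06, and Nr1h3, which encodes LXR-alpha, was dim and stood at -0.24; none of these 5 passed in either fit.

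**Figure D2:**
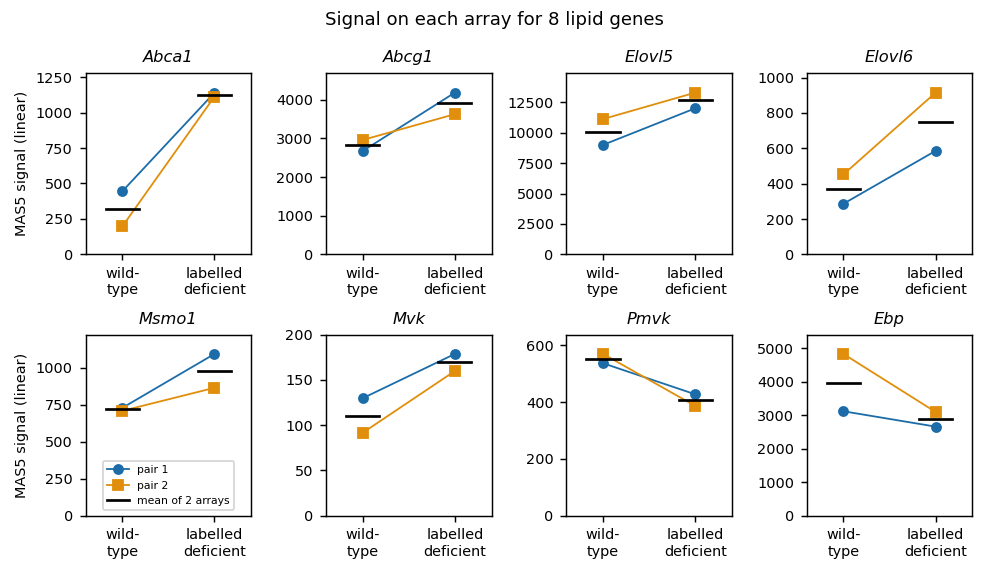
MAS5 signal on a linear axis from 0 for 8 lipid genes on each of the 4 arrays, with lines joining the arrays of a numbered pair and black bars for group means. In all 8 panels both labelled-deficient signals lie on the same side of both wild-type signals, with the widest ratio in Abca1 (445 and 198 against 1141 and 1113). That order was fixed by the choice, since all 8 are from the members whose groups did not overlap. Of 35 members 9 were so upward and 5 downward, where 41.0% of all genes were so.

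Fatty acid synthesis held Elovl6, which passed with the block besides Abca1. Elovl6, the elongase that extends palmitate to stearate, read 286 and 452 against 585 and 915. The labelled-deficient array was brighter in each pair, by the same log2 ratio of 0.99, although pair 2 was brighter than pair 1 in both genotypes. The difference of 0.99 ± 0.34 missed the threshold without the block (limma adjusted p = 0.229) and passed with it (0.00398, interval from 0.53 to 1.45). A second Elovl6 probe set went the same way in both pairs, at 202 and 260 against 323 and 334. The third, at 143 and 57.0 against 98.1 and 129, was lower in pair 1 and higher in pair 2.

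Elovl5, which elongates polyunsaturated fatty acids, read 9002 and 11128 against 12009 and 13298 and did not overlap between groups (log2 0.34 ± 0.18, limma adjusted p = 0.542). Its other probe set showed the same order more widely, at 6701 and 8393 against 10934 and 10011. The desaturase gene Fads2 was dim, at 71.8 and 77.5 against 12.3 and 40.3, so its difference of -1.16 ± 0.45 (adjusted p = 0.305) rests on labelled-deficient signals under the level of about 40.5 where the filter lay. Its other probe sets, under the filter, turned sign between pairs 1 and 2, at 0.53 and -0.54 and at -1.69 and 0.74. Fads1, the other front-end desaturase, stood at 0.22.

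No core enzyme of fatty acid synthesis passed in either fit. Acly, which makes cytosolic acetyl-CoA from citrate, read 8656 and 9850 against 8787 and 9639, a difference of -0.0047 with an interval from -0.41 to 0.40. Acaca, the acetyl-CoA carboxylase that commits carbon to the route, stood at -0.20, and Fasn, the synthase, read 1715 and 1069 against 1891 and 1600 (log2 0.36 ± 0.28). The stearoyl-CoA desaturase genes Scd1 and Scd2 stood at 0.17 and 0.18. Scd1 read 446 and 118 against 294 and 236, lower in pair 1 (-0.57) and higher in pair 2 (0.91), and its wild-type signals enclosed the others. Scd2 read 3966 and 3733 against 3746 and 5084, with overlapping groups.

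The mevalonate and isoprene enzymes lay on both sides of 0: 4 of 7 above and 3 below, between -0.43 and 0.56, and none passed in either fit. Hmgcs1, which makes HMG-CoA, read 7051 and 6470 against 5228 and 8024. It was lower in pair 1 and higher in pair 2, with a difference of -0.06 and an interval from -0.61 to 0.48. Its 4 other probe sets also differed in sign among themselves, from -0.28 to 0.36. The kinases Mvk and Pmvk, which act one after the other, went opposite ways on the probe sets read. Mvk read 130 and 91.6 against 179 and 160 (log2 0.56 ± 0.33), and Pmvk read 537 and 570 against 428 and 387 (log2 -0.43 ± 0.25). Neither pair of groups overlapped, but limma's adjusted p was 0.599 and 0.600. A second Mvk probe set read 104 and 84.0 against 156 and 72.1. There the groups overlapped, with ratios of 0.51 in pair 1 and -0.18 in pair 2. The decarboxylase gene Mvd stood at -0.19 and the isomerase gene Idi1 at 0.04, both with overlapping groups. Fdps, the farnesyl diphosphate synthase gene at the branch between sterols and prenyl groups, read 283 and 276 against 331 and 379 (log2 0.33 ± 0.27), higher in both pairs. Ggps1, which makes the geranylgeranyl group, read 1404 and 878 against 1627 and 1013. On that probe set the genotypes differed by about the same ratio in both pairs (log2 0.21). Its other probe sets past the filter each turned sign between pairs 1 and 2, at 0.07 and -0.19, 0.47 and -0.07, and 0.56 and -0.51.

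Of the squalene and sterol ring enzymes 4 of 11 stood above 0 (36.4%, against 49.7% of all genes) and 7 below, with a median of -0.16. None passed with or without the block, and the range was from -0.43 to 0.43. These counts depend on the probe set read. Cyp51 stood at 0.035 with the mean of its probe sets. With the first-listed probe set, Cyp51 stood at 0.13 and Hsd17b7 at 0.040. Fdft1, which makes squalene, read 2316 and 2074 against 1708 and 2247 (log2 -0.16), with overlapping groups. Sqle, the epoxidase and a slow step of the route, read 741 and 1126 against 930 and 1367 (log2 0.30), and the pair separated its signals more than the genotype did. Lss, which closes the sterol rings, read 514 and 283 against 351 and 246 (log2 -0.36), again with overlap. Cyp51, the lanosterol demethylase, read 1214 and 968 against 804 and 866 (log2 -0.37). Its groups stood apart, but its other probe sets stood at 0.13 and 0.35, so its direction depends on the probe set. Of the demethylation enzymes that follow, Msmo1 read 729 and 709 against 1094 and 865 (log2 0.43 ± 0.24), Nsdhl stood at 0.19 and Hsd17b7 at -0.30. A second, dimmer Msmo1 probe set showed the same order, with a mean of 59.97 against 120.5 (log2 0.83). The reductase gene Tm7sf2 stood at -0.01.

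At the end of the route, Ebp, the sterol isomerase, read 3117 and 4828 against 2659 and 3097, the lowest difference of these 11 (log2 -0.43 ± 0.25, limma adjusted p = 0.592, and 0.0982 with the block). Dhcr7, which makes cholesterol in the last step, stood at -0.16. Sc5d, a desaturase, stood at 0.10 on its brightest probe set, where the groups overlapped. A dimmer Sc5d probe set read 421 and 335 against 676 and 587, a difference of 0.72 in which the groups stood apart. It was not tested, since 1 probe set was read for each gene.

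None of the 5 regulators passed in either fit. Srebf1 read 2211 and 1439 against 2188 and 1473, which put the genotypes level within each pair (log2 0.01, with an interval from -0.68 to 0.70). Srebf2, the SREBP gene most tied to cholesterol, read 281 and 493 against 435 and 341, higher in pair 1 (0.60) and lower in pair 2 (-0.51). Its other probe set went the reverse way, at 312 and 148 against 297 and 196 (-0.07 in pair 1 and 0.37 in pair 2). Scap read 1776 and 1204 against 2230 and 1615 and was higher in both pairs (log2 0.37 ± 0.28, limma adjusted p = 0.710). Insig1, itself an SREBP target that reports pathway activity, read 428 and 426 against 472 and 542 (log2 0.24, with an interval from -0.36 to 0.83). Insig2, its homologue, read 1261 and 1682 against 1105 and 1252 (log2 -0.30), while its other probe sets stood at -0.05 and -0.04.

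Across the members, 9 were higher and 5 lower with groups that did not overlap, where 41.0% of all genes were so, 20.0% upward and 21.1% downward. At least 1.5-fold differences in the same direction in both pairs were found for Abca1 and Elovl6 upward and Fads2 downward, against 5.27% and 5.77% of all genes. Fads2 passed the filter through its wild-type arrays, since both of its labelled-deficient signals lay under the filter level, so its fall carries little weight. With the mean of a gene's probe sets, Msmo1 took the place of Elovl6. The ratio had the same sign in both pairs for 23 of 35 members (65.7%), against 62.6% of all genes. The 2 pairs' ratios correlated across the 35 members with a Pearson r of 0.61, and across all genes with 0.55; genes are not independent replicates, and Abca1 and Fads2 lie at the ends of that relation. Where a member had other probe sets that passed the filter, 24 of 39 had the sign of the one read.

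**Figure D3:**
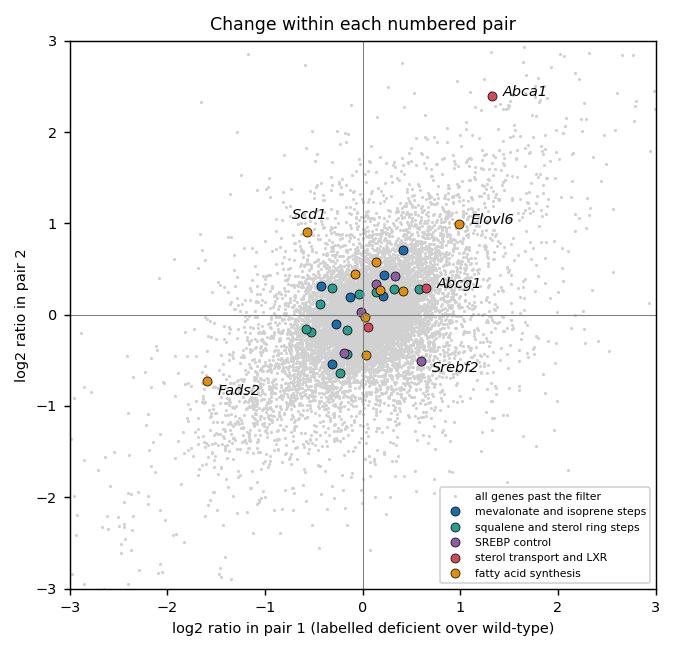
Log2 ratio of the labelled-deficient over the wild-type array in pair 1 (horizontal) and pair 2 (vertical) for all 12115 genes (grey) and the 35 members (coloured by role); 67 genes beyond 3 log2 units lie outside the axes. Abca1 (1.32 and 2.40) and Elovl6 (0.99 and 0.99) lie in the upper right and Fads2 (-1.60 and -0.72) in the lower left. Both labelled-deficient signals of Fads2 were under the filter level.

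For many members the pair separated the arrays as much as the genotype did. The size of the pair 2 minus pair 1 difference exceeded that of the genotype for 17 of 35 members (48.6%, against 49.8% of all genes). With genotype in the same limma fit, 3 members passed for the pair, where 7.11% of all genes did. Hsd17b7, which read 460 and 878 against 410 and 644, was higher in pair 2 (log2 0.77, limma adjusted p = 0.0347). Srebf1 and Ggps1 were lower in pair 2, at -0.59 (0.0327) and -0.67 (0.0241). The other probe sets of Hsd17b7 and Ggps1 were not tested for the pair, and they were mixed. For Hsd17b7, those at 218 and 299 against 330 and 244 and at 125 and 310 against 219 and 191 rose in wild-type only. One at 55.8 and 67.4 against 35.0 and 46.9 rose in both genotypes. For Ggps1, those at 635 and 670 against 669 and 588 and at 252 and 459 against 380 and 318 fell in labelled-deficient cells only. One at 390 and 349 against 545 and 331 fell in both. Scd1 had the widest pair difference of the members (-1.04, limma adjusted p = 0.0626) and Stard4, on the probe set read, one of 0.58 (0.0562). What distinguishes the pairs was not stated in the sources used here.

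**Figure D4:**
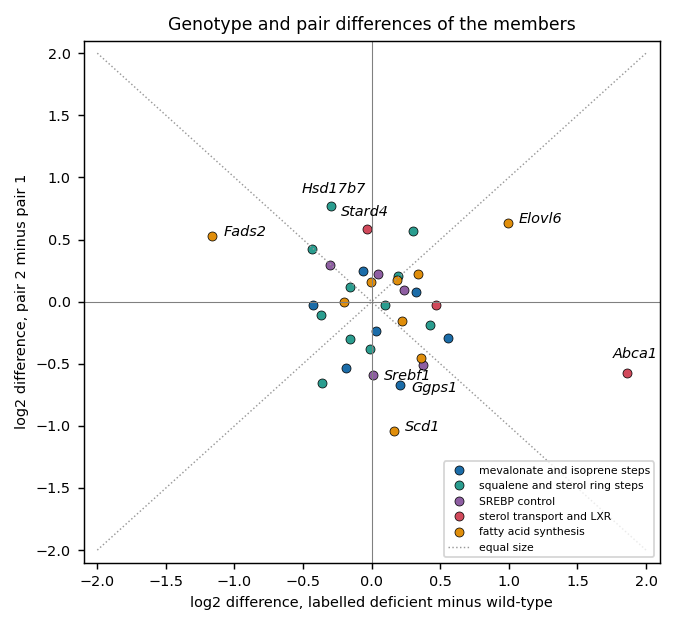
For each member, the labelled-deficient minus wild-type difference (horizontal) against the pair 2 minus pair 1 difference (vertical), both in log2 units from the fit with both terms; dotted lines mark equal size. Srebf1, Stard4, Hsd17b7, Ggps1 and Scd1 lie near the vertical axis, while Abca1, Elovl6 and Fads2 lie toward the sides.

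The other lipid genes were read from lists of neighbouring routes. For 19 fatty acid activation and elongation genes measured the median log2 difference was -0.05. At an unadjusted limma p under 0.05, 1 was higher and 3 lower, where 13.0% of all genes reached it. At an adjusted p under 0.05, 1 fell and 0 rose, where 1.37% of all genes fell and 1.23% rose. The one that fell was Fabp5, a fatty acid carrier, which read 10691 and 10441 against 5123 and 4353 (log2 -1.16 ± 0.18, limma adjusted p = 0.0223). With the block 1 rose and 2 fell, where 5.44% of all genes rose and 6.50% fell: Acss2, which makes acetyl-CoA from acetate, rose (log2 0.95, adjusted p = 0.0159), and Acsl5, which activates long chains, fell with Fabp5 (-0.53, 0.0360). The Acss2 rise was uneven, with ratios of 0.18 in pair 1 and 1.73 in pair 2. Me1, a malic enzyme that supplies NADPH, was dim and stood at -0.98 (adjusted p = 0.332).

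Of 16 genes of SREBP processing and sterol handling, 0 passed by limma at an adjusted p under 0.05. At an unadjusted p under 0.05, 4 were higher and 0 lower, where 13.0% of all genes reached it. With the block 4 rose, where 5.44% of all genes rose. Besides Mylip these were Lipa, the lysosomal acid lipase that frees cholesterol from its esters (1698 and 1084 against 2954 and 1994; log2 0.83), Sec24a, a coat protein of vesicles that carry SREBP (0.76), and the oxysterol-binding protein gene Osbpl9 (0.63). Their adjusted p values with the block were 0.00131, 0.00756 and 0.00860. The median of the list was 0.05.

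Of 10 isoprenoid branch genes none passed in either limma fit, with 0 at an unadjusted p under 0.05. For this list and those below, the share of all genes at that unadjusted p was 13.0%. Fntb, a farnesyltransferase subunit gene, stood at 0.66 ± 0.71 and Dhdds, of dolichol synthesis, at -0.49 ± 0.26. Of 19 glycerolipid genes 0 passed by limma (1 was lower at an unadjusted p under 0.05), and with the block 1 fell, where 6.50% of all genes did: Dgat1, which makes triglyceride (1319 and 1109 against 627 and 724; log2 -0.83, adjusted p = 0.00583). Chka, a choline kinase gene, stood at 0.64. Of 19 fatty acid oxidation genes 0 passed by limma (2 were higher and 1 lower at an unadjusted p under 0.05). With the block 2 rose and 1 fell, where 5.44% of all genes rose and 6.50% fell. Acadm (log2 0.70, limma adjusted p = 0.00646) and Decr1 (0.62, 0.0358) rose and Acadl fell (-0.71, 0.00559). Acadm and Acadl encode acyl-CoA dehydrogenases for medium and long chains. The medians of these 3 lists lay between -0.09 and -0.03, beside -1.10 for cell division.

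**Figure D5:**
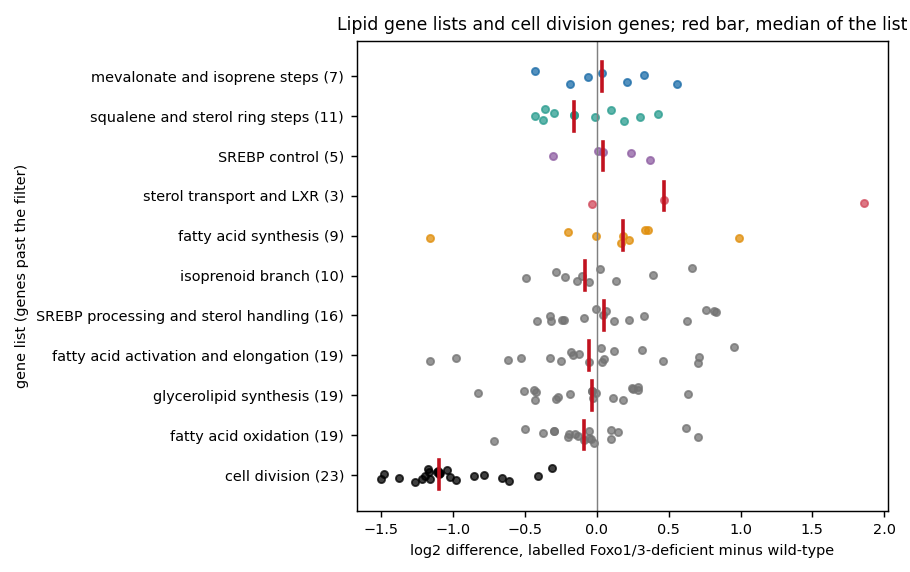
Log2 difference between labelled-deficient and wild-type arrays for every measured gene of 5 member lists (coloured), 5 neighbouring lipid lists (grey) and cell division genes (black), with red bars at list medians. The lipid lists centre near 0 apart from the 3-gene transport list (0.47), while cell division genes all lie below 0 (median -1.10).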

How the data were processed

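The authors deposited linear probe-set intensities. The submitters' processing notes name MAS5, its version being not given in the sources used here; per the labels, total RNA was biotin-labelled the Affymetrix way. MAS5 corrects background and scales arrays, and since each array's trimmed mean was already 500.003, none was rescaled. Among 45101 probe sets were 64 controls; GEO's platform annotation named 1 gene for 34945 others, several for 932 and none for 9160. Detection calls were not analysed here, and the number of arrays limits the precision.

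The tested value was log2(signal + 17), 17 being the rounded 25th percentile of all values, which understates changes of dim genes. Probe sets with a mean log2 value under the 40th percentile were left out, and each gene was read from its brightest probe set. The test was that of limma 3.58.1, run in R 4.3.3 (lmFit, eBayes with intensity trend, two-sided, Benjamini-Hochberg over 12115 genes), with 2 residual degrees of freedom and 5.67 from the shared variance model. An exact test of 2 against 2 arrays cannot give a p under 0.333. The scripts were tested on simulated data. The titles call the numbers pairs, which is where the pairing comes from; deviations from group means correlated between arrays of a pair at 0.368 across genes. The fit without the pair was the main one, and the fit with it an alternative. The latter had 1 residual degree of freedom and 17.3 from the shared variance model. The test of pair 2 against pair 1 and the LXR motif were chosen after the data had been seen. The members and lists were chosen with earlier results of these data known. All members were named; of the other lipid lists, the called genes and the 2 largest differences of each, with genes called with the block added after their values were seen. Other alternatives were the pseudocount, the filter, quantile normalization, the choice of probe set, the intensity trend and leaving out each array.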

Additional observations from a re-analysis of the deposited data

How the results depend on the processing

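The number of members higher fell from 1 to 0 with a pseudocount of 1, without the filter, with the mean of a gene's probe sets, with its first-listed probe set and without the intensity trend, and rose to 2 with the pair as a block. It ran from 0 to 1 when 1 array was left out, and was 1 only without wild-type replicate 1. No member was called lower under any of the 13 alternatives. Over all genes, 149 higher and 166 lower became 46 and 45 without the filter, 58 and 55 without the trend, and 659 and 787 with the pair as a replicate block. Leaving out 1 array gave from 61 to 247 higher and from 76 to 233 lower: 62 and 76 without labelled-deficient replicate 1, 61 and 89 without labelled-deficient replicate 2, and 247 higher without wild-type replicate 1. Counts of members at least 1.5-fold lower in both pairs fell from 1 to 0 with a pseudocount at the median or a filter at percentile 60, and those higher from 2 to 0 with the first-listed probe set. The block changed no member's call other than that of Elovl6. The causes were not tested.

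The sign turned in at least 1 alternative for 15 of 35 members, none of them with a difference above 0.37 in size. With the mean of all probe sets, Idi1 stood at -0.086, Cyp51 at 0.035 and Acly at 0.048. With the first-listed one, Cyp51 stood at 0.13, Hsd17b7 at 0.040 and Acly at 0.29. With quantile normalization, Srebf2 stood at -0.010 and Acly at 0.063. With 1 array left out, the log2 difference ran as follows: Hmgcs1 from -0.37 to 0.25, Mvd from -0.49 to 0.12, Idi1 from -0.16 to 0.23, Ggps1 from -0.13 to 0.54, Fdft1 from -0.36 to 0.036, Lss from -0.77 to 0.054, Tm7sf2 from -0.35 to 0.33, Hsd17b7 from -0.75 to 0.16, Srebf1 from -0.30 to 0.32, Srebf2 from -0.34 to 0.43, Stard4 from -0.38 to 0.30, Acly from -0.098 to 0.088, Scd1 from -0.72 to 1.06 and Scd2 from -0.038 to 0.40. A lone array left in a group is assumed to vary like the others. Signal over background was not analysed here, so the dim signals of Fads2 and Mvk have no check against it.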
